A study of Mus musculus with 18 samples.

Results

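Interferon-stimulated genes are the genes that a cell switches on after interferon has bound its receptors. 45 of them were listed by symbol; no threshold on the arrays' values chose them, though earlier results of these data were known. Of the 45, 42 had a probe set annotated to that gene alone, among 18193 genes on the array measured in that way. Isg15 lay only on a probe set shared by several symbols, and Oas1g and Ifi44 had none, so these 3 have no value here. Where a gene had several probe sets, the one with the highest mean over all arrays was used.

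The series measured total RNA of mouse embryonic stem cells, with the CGR8 line given as the source of every sample, on 18 Affymetrix expression arrays in 6 groups of 3 labelled biological replicates. The culture medium was GMEM, with 10% serum added and LIF, the cytokine that keeps mouse stem cells pluripotent. In 4 groups, plasmids were delivered by lipofection: an empty vector, Foxd3 (a forkhead transcription factor of pluripotent cells), CA-NFATc3 (a form of NFATc3, a transcription factor controlled by calcium through calcineurin), or both together. The other 2 groups were Foxd3fl/fl:Cre-ERT cells, in which tamoxifen activates a recombinase that removes the floxed Foxd3 alleles. They were treated with DMSO (tamoxifen for 0 days) or with tamoxifen for 2 days, and both carry the floxed alleles and the Cre. No group analysed here had tamoxifen without these alleles, so tamoxifen, recombinase activity and loss of Foxd3 cannot be told apart. Nothing in the sources used here gives the time after transfection, the promoter driving Cre-ERT, the number of clones or the use of feeder cells. The RNA is of whole cultures, in which fewer cells of a type and less RNA per cell cannot be told apart.

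Type I interferons bind a receptor made of IFNAR1 and IFNAR2, whose kinases JAK1 and TYK2 phosphorylate STAT2. It joins IRF9 in a complex that binds the interferon-stimulated response element in the promoters of its target genes. The response to interferon gamma uses another sequence, the gamma-activated site. The products include sensors of viral RNA, enzymes that degrade or mark it, GTPases that attack the vacuoles of parasites, and inhibitors that end the response. Pluripotent stem cells are known for a weak response to interferon.

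The response element was looked for in the RefSeq promoter windows of assembly GRCm38.p6, which run from 250 bases before to 50 bases after an annotated transcription start. A window was present for 35 of the 45 genes. The letters searched were GAAA, any 2 bases and GAAA again, which read TTTC, any 2 bases and TTTC on the other strand. They were found for 18 of the 35 genes (51.4%), against 3.99% of all 27025 genes with a window, and in 45.2% of the members' windows against 3.44% of all windows. The letters of the gamma-activated site, TTCNNNGAA, which read the same on both strands, were found for 10 of the 35 (28.6%) against 9.55% of all genes. They were in 23.8% of the members' windows against 8.30% of all windows. Both motifs were found for 6 members, with shared bases in 2 of them, and neither for 13. Such a match is a run of letters and not a measured binding site. Dhx58, Iigp1, Mx1, Mx2, Oas2, Parp14, Parp9, Rtp4, Usp18 and Zbp1 had no window.

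The stretches below are shown because they carry the response element in genes to which the results turn, and each is printed 5′ to 3′ on the strand of its gene, upstream of the start, with matches to either form in capitals. Ifit1, Ifit3, Rsad2 and Irgm1 had some of the largest differences between tamoxifen and DMSO. Gbp2, Bst2 and Gbp3 had 3 of the 4 largest differences between the knockout cells with DMSO and the vector cells, and the other, Rtp4, has no window. Igtp and Irgm2 are neighbours on chromosome 11 whose stretches had 57 of 59 bases in common. Oas1a is shown for the OAS enzymes, and Stat2 as a gene that carries the letters and did not pass the test with tamoxifen.
Ifit1 (chr19:34640779-34640838, plus strand): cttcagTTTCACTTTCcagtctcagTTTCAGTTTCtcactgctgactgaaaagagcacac
Ifit3 (chr19:34583382-34583441, plus strand): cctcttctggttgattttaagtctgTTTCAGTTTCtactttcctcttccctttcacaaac
Rsad2 (chr12:26456538-26456597, minus strand): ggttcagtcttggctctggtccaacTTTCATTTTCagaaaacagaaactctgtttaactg
Irgm1 (chr11:48871421-48871475, minus strand): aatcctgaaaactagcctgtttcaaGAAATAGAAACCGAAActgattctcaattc
Oas1a (chr5:120907526-120907570, minus strand): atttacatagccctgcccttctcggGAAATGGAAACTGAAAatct
Bst2 (chr8:71537562-71537627, minus strand): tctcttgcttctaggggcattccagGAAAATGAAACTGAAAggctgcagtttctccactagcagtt
Gbp2 (chr3:142620579-142620638, plus strand): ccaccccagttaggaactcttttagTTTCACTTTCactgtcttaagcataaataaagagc
Gbp3 (chr3:142559974-142560039, plus strand): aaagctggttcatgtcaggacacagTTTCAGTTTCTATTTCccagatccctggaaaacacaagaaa
Igtp (chr11:58199497-58199555, plus strand): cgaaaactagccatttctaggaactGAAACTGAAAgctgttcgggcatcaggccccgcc
Irgm2 (chr11:58214888-58214947, plus strand): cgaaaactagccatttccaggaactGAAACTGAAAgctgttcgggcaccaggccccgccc
Stat2 (chr10:128270251-128270310, plus strand): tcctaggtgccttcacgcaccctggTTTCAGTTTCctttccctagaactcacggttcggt

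The 18 genes held 29 matches, of which 22 began within 150 bases before the start. The median position was 45 bases upstream. The 16 measured genes with the response element had a median log2 difference between tamoxifen and DMSO of 1.89 (range -0.24 to 3.84). The 16 measured genes that had a window without it had a median of 1.20 (range -0.15 to 2.51). These ranges overlap, and the difference between them was not tested.

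**Figure D1:**
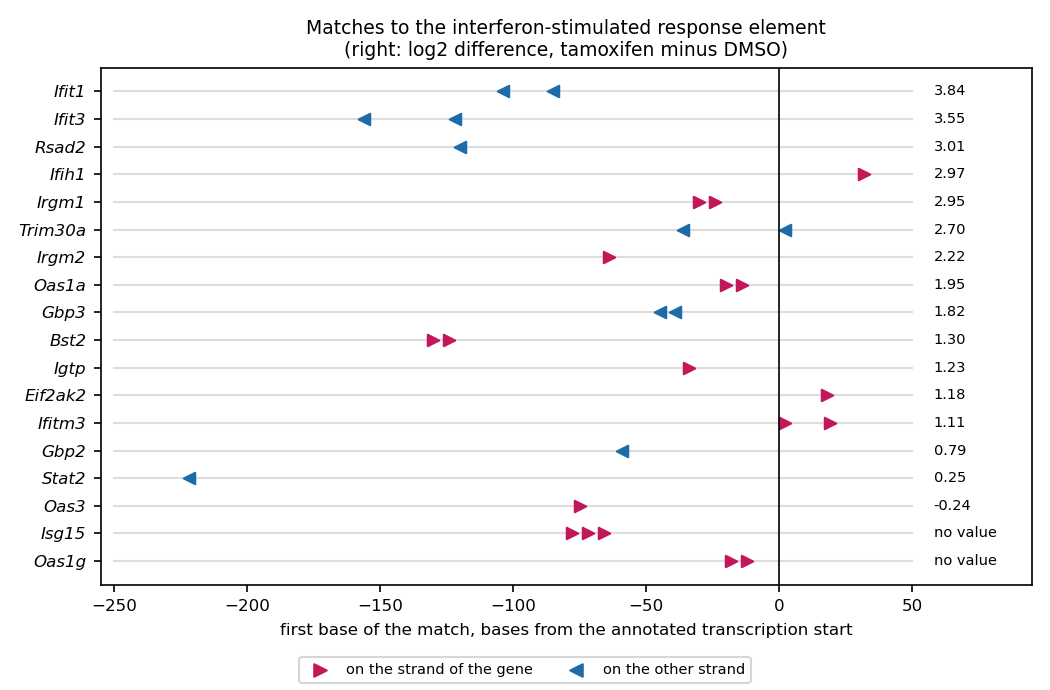
Position of each match to the interferon-stimulated response element, in bases from the annotated start (0), for the 18 genes that hold one; right-pointing marks lie on the strand of the gene and left-pointing marks on the other strand. The numbers on the right are log2 differences between tamoxifen and DMSO (signal + 32), from 3.84 for Ifit1 to -0.24 for Oas3, and Isg15 and Oas1g have no value.

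Signals were MAS5 intensities, which the authors' scaling brought to a trimmed mean of 500 in every array. The median of all deposited values, 65.8, served as the threshold of a measurable signal: a gene was tested where at least 3 arrays of the fit reached it. Foxd3 was looked at as a check of the labels. Its signal was 443 ± 55.9 (SD, n = 3) with vector and 451 ± 38.6 with CA-NFATc3. It was 237 ± 5.95 in the cells labelled Foxd3 and 234 ± 37.7 in those labelled as carrying both plasmids. It was therefore lower, not higher, where the label says Foxd3 was added, and those groups are named below by their labels. The plasmid sequence is not in the sources used here, so whether this probe set detects the plasmid's transcript is not known. The signal therefore cannot show whether Foxd3 was added. In the knockout cells the Foxd3 signal was 219 ± 25.9 with DMSO and 31.4 ± 29.6 with tamoxifen, a log2 difference of -2.08 ± 0.27 (SE, adjusted p = 0.000146). Nfatc3 measured 1581 ± 31.4 with vector and 1732 ± 58.5 with CA-NFATc3 (adjusted p = 0.352). Whether its probe set detects the plasmid's transcript is not known either.

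More of the interferon-stimulated genes had a measurable signal in the knockout cells, above all with tamoxifen, than in the transfected cells. The mean signal reached 65.8 for 20 of the 42 genes with vector, 21 in the cells labelled Foxd3, 23 with CA-NFATc3 and 21 with both. It did so for 31 in the knockout cells with DMSO and 41 with tamoxifen. The median over all probe sets of an array was 56.6 to 60.6 with vector, under this threshold. In the knockout cells it was above, at 73.0 to 80.6 with DMSO and 77.6 to 80.7 with tamoxifen. More probe sets of any kind therefore reached the threshold in the knockout arrays than in the vector arrays, and the share of all genes was not counted. The median signal over the 42 genes was 56.3 with vector, 62.7 with Foxd3, 89.6 with CA-NFATc3 and 68.4 with both. It was 173.5 in the knockout cells with DMSO and 786.6 with tamoxifen. The median over all genes was between 140.4 with vector and 204.5 in the knockout cells with tamoxifen.

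**Figure D2:**
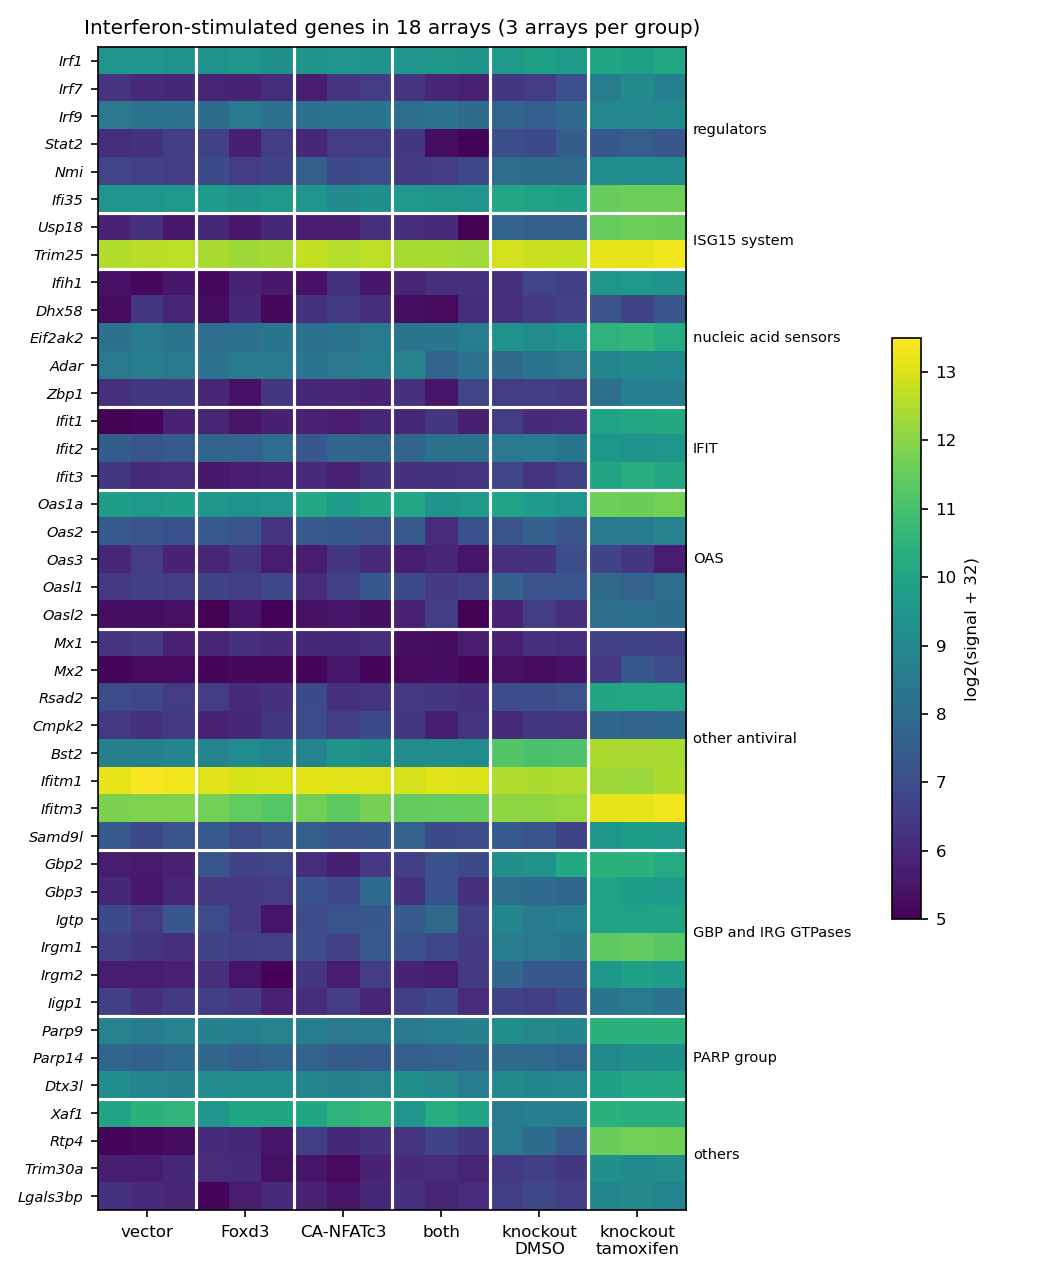
Level of each of the 42 measured genes (rows, by role) in each of the 18 arrays (columns, 3 per group), as log2(signal + 32), with the colour scale on the right. The last 3 columns, the knockout cells with tamoxifen, are the brightest for most rows, while Ifitm1 is brightest in the vector cells.

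The comparison of tamoxifen with DMSO asks what differed after 2 days of tamoxifen in cells with floxed Foxd3. Among the 40 interferon-stimulated genes tested, 37 rose, 0 fell and 3 did not pass the test. Of all 12093 genes tested, 17.5% were called higher and 16.9% lower, by limma at an adjusted p under 0.05. The filter bears on this count, since 12 of the 40 did not reach the threshold in every DMSO array and relied on the tamoxifen arrays to be tested. Among the 28 that reached it in all 3 DMSO arrays, 25 rose, against 16.2% of the 11122 genes of that kind. With no filter, 37 of all 42 genes rose, against 11.1% of 18193 genes, with Mx2 gained and Dhx58 lost. The median log2 difference over the 42 was 1.47, against 0.00013 over all genes, and 40 of the 42 were above 0. Among the genes tested, they made up 4 of the 10 with the largest rise and 8 of the 50. The filter bears on these ranks too, since Ifit1, Ifit3, Ifih1 and Trim30a relied on the tamoxifen arrays to be tested. Of 971 tested genes of that kind, 319 rose and 0 fell.

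Markers of other cells moved with this comparison. All 8 fibroblast markers rose, with a median log2 difference of 2.16, and their summed signal was 2553 to 3152 with DMSO and 15840 to 18043 with tamoxifen. It was 329 to 394 in the vector cells, where Col1a1, Col1a2, Col3a1, Dcn, Lum and Postn were under the threshold. Of 8 blood and macrophage markers, the 6 that could be tested rose, and the summed signal was 1426 to 1643 with DMSO and 7813 to 8878 with tamoxifen. The filter bears on these counts, since Lum, Ptprc and Aif1 averaged under the threshold with DMSO and relied on the tamoxifen arrays to be tested. By limma with no filter, all 8 fibroblast markers and 6 of the 8 blood and macrophage markers rose, against 11.1% of 18193 genes. Itgam and the T cell gene Cd3e were under the threshold in every group. Lyz2, the lysozyme of macrophages, was 1140, 1021 and 844 with DMSO and 6528, 5700 and 5908 with tamoxifen. Ptprc, the CD45 antigen of blood cells, was 33.2, 36.2 and 51.5 with DMSO and 243, 218 and 211 with tamoxifen. Of 8 embryonic stem cell markers 3 fell, and their summed signal was 89258 to 91083 with DMSO and 78573 to 83096 with tamoxifen. The 3′ to 5′ ratio of actin, which rises as RNA degrades, was 2.15 ± 0.088 with DMSO and 1.89 ± 0.0031 with tamoxifen, and that of Gapdh was 1.01 in both. The part of these differences in the result was not tested.

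**Figure D3:**
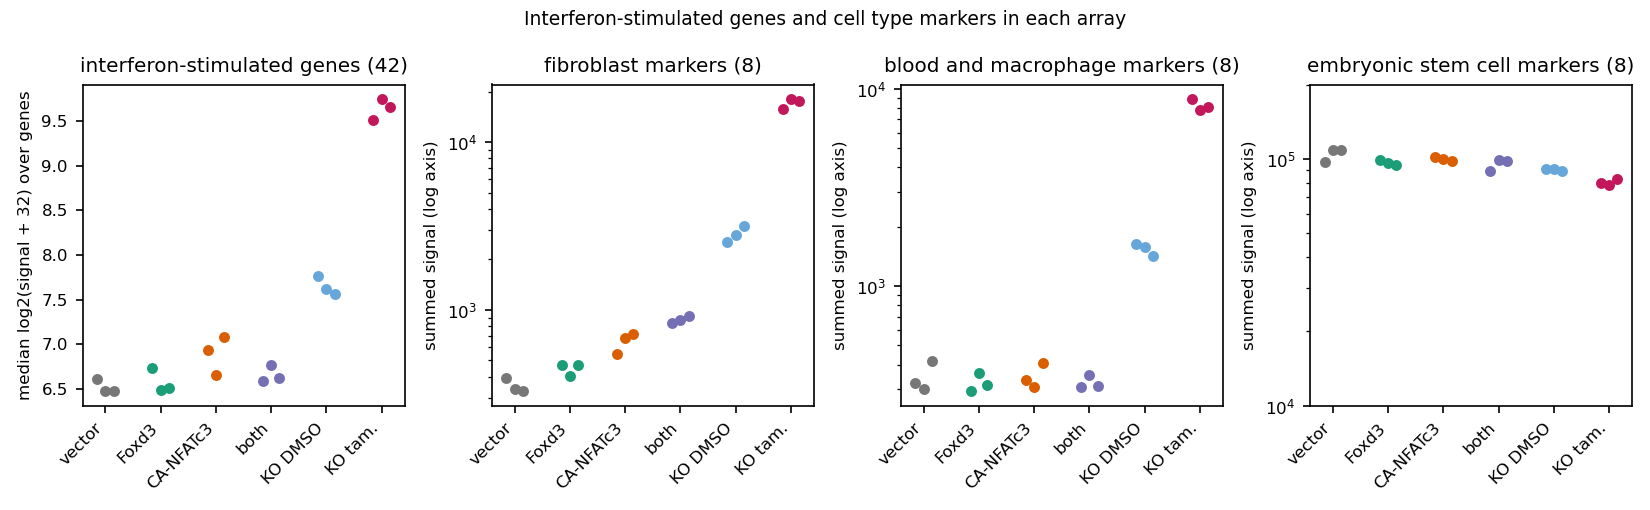
Each point is 1 array, by group. The panels show the median log2(signal + 32) over the 42 interferon-stimulated genes, and the summed signal of 8 fibroblast, 8 blood and macrophage and 8 embryonic stem cell markers on log axes; the first 3 are highest in the knockout cells with tamoxifen and next highest in those with DMSO, while the stem cell markers are lowest with tamoxifen.

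Of the 6 regulators, 4 rose. Irf7, which amplifies interferon production, had signals of 50.3, 60.9 and 104 with DMSO and 357, 489 and 377 with tamoxifen. The groups did not overlap, and the ratio of means was 5.68 (log2 difference 2.10 ± 0.19, adjusted p = 9.44e-06). Without overlap, 38 of the 42 measured interferon-stimulated genes were higher with tamoxifen, against 18.2% of all 18193 genes. Irf9, the DNA-binding part of the STAT complex, was 180, 154 and 208 with DMSO and 453, 466 and 497 with tamoxifen, 2.61-fold higher (1.25 ± 0.12, adjusted p = 1.47e-05). Ifi35 and Nmi, which bind each other, rose 3.22-fold and 2.38-fold. Both remaining regulators missed the threshold. Irf1, a target of the gamma pathway, was 719, 889 and 806 with DMSO and 992, 872 and 1044 with tamoxifen, so the groups overlapped (0.26 ± 0.10, adjusted p = 0.0569). It was called without DMSO replicate 2 or tamoxifen replicate 2 (adjusted p 0.0348 to 0.0402) and with all 18 arrays in the fit (0.037). Stat2 was 101, 87.2 and 149 with DMSO and 128, 159 and 126 with tamoxifen, also with overlap (0.25 ± 0.18, adjusted p = 0.322).

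Usp18, the protease that removes ISG15 from proteins and blocks the receptor, had the largest log2 rise among all genes tested. It measured 176, 159 and 165 with DMSO and 2858, 3107 and 3035 with tamoxifen. The arrays of each group lay close together, and the ratio was 18.03 (3.93 ± 0.08, adjusted p = 1.22e-10). Trim25, the ligase that joins ISG15 to some proteins and modifies the RNA sensor RIG-I, rose 1.33-fold (0.41 ± 0.06, adjusted p = 0.000239).

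All 5 sensors of nucleic acids rose. Ifih1, the sensor MDA5 of long double-stranded RNA, was 42.1, 78.8 and 66.8 with DMSO and 688, 766 and 650 with tamoxifen. The DMSO mean lay under the threshold, so the rise was at least 9.96-fold (2.97 ± 0.16, adjusted p = 9.54e-08). Zbp1, a sensor of Z-form nucleic acid, rose at least 5.02-fold and Eif2ak2, the kinase PKR that halts translation, 2.33-fold. Adar, which edits double-stranded RNA, was 211, 287 and 299 with DMSO and 450, 490 and 466 with tamoxifen, 1.76-fold higher (0.76 ± 0.13, adjusted p = 0.000846). Dhx58, the helicase LGP2, was called at an adjusted p of 0.0358, a call lost with no filter (adjusted p = 0.0603), with the mean of its probe sets (0.0664) and in a fit of all 18 arrays (0.119). It was also lost in 4 of the 6 fits that left out 1 array, those without DMSO replicates 1 and 2 and tamoxifen replicates 1 and 3 (0.0725 to 0.136).

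The 3 IFIT genes, whose proteins bind viral RNA or block its translation, all rose. Ifit1 was 59.7, 33.1 and 37.5 with DMSO and 934, 1066 and 1116 with tamoxifen, at least 15.8-fold higher (3.84 ± 0.15, adjusted p = 1.02e-08). Ifit3 was 80.8, 46.7 and 69.2 with DMSO and 1004, 1216 and 1077 with tamoxifen, at least 15.3-fold higher (3.55 ± 0.14, adjusted p = 1.35e-08). Both were dim in every DMSO array and bright in every tamoxifen array. Ifit2 was already above the threshold with DMSO, at a mean of 309, and rose 2.13-fold (1.02 ± 0.10).

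The 4 OAS genes tested rose; their enzymes sense double-stranded RNA and activate an RNase, or are relatives without that activity. Oas1a rose 3.94-fold, Oas2 2.63-fold, Oasl2 at least 3.58-fold and Oasl1 1.55-fold. The call of Oasl1 was lost in the fit of all 18 arrays (adjusted p = 0.093) and without DMSO replicates 2 or 3 or tamoxifen replicates 1 or 3 (0.0557 to 0.0991). Oas3 was under the threshold in both groups on average, at 40.1, 44.4 and 99.3 with DMSO and 76.1, 49.0 and 18.6 with tamoxifen, and was not tested.

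Among the other antiviral genes, 6 of 7 tested rose. Rsad2, the enzyme viperin, which makes a nucleotide that stops viral polymerases, was 96.9, 95.7 and 113 with DMSO and 988, 1074 and 1073 with tamoxifen, 10.3-fold higher (3.01 ± 0.11, adjusted p = 4.57e-09). Samd9l, a restriction factor, rose 6.93-fold, Cmpk2, a nucleotide kinase, at least 2.90-fold, and Bst2, the tether that holds virus particles at the cell surface, 2.47-fold. Mx1, a GTPase that blocks viruses, was 23.0, 41.6 and 37.2 with DMSO and 67.3, 73.9 and 69.6 with tamoxifen, at least 1.07-fold higher (adjusted p = 0.0304, or 0.0763 without DMSO replicate 1). Mx2 was not tested with the filter, at 9.54, 6.04 and 10.7 with DMSO and 52.8, 128 and 92.0 with tamoxifen, and with no filter its log2 difference was 1.55 (adjusted p = 0.00116).

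The interferon-induced membrane proteins, which stop viruses from fusing with the cell, differed from each other. Ifitm3 was 4375, 4279 and 4619 with DMSO and 9270, 9393 and 10129 with tamoxifen, 2.17-fold higher (1.11 ± 0.05, adjusted p = 3.9e-08). Ifitm1 was 5701, 5557 and 5773 with DMSO and 5025, 4713 and 5610 with tamoxifen, with overlap only between the brightest tamoxifen array and the dimmest DMSO array (-0.15 ± 0.06, adjusted p = 0.0799, or 0.0164 without tamoxifen replicate 3). It had its highest mean, 10228, in the vector cells. The difference between these genes was not tested.

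All 6 interferon-induced GTPases, which act against intracellular parasites and bacteria, rose. Irgm1, a regulator of the family, was 355, 303 and 292 with DMSO and 2640, 2802 and 2540 with tamoxifen, 8.41-fold higher (2.95 ± 0.09, adjusted p = 1.28e-09). Irgm2 rose 5.39-fold, Gbp3 3.93-fold, Iigp1 3.88-fold and Igtp 2.44-fold. Gbp2 rose least, at 557, 624 and 1114 with DMSO and 1366, 1388 and 1131 with tamoxifen (1.69-fold, adjusted p = 0.00862).

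The PARP enzymes Parp9 and Parp14 and the ubiquitin ligase Dtx3l, which pairs with PARP9, rose 2.74-fold, 2.74-fold and 2.15-fold. Of the remaining genes, Rtp4, a chaperone of receptors, was 324, 226 and 140 with DMSO and 2974, 3247 and 3203 with tamoxifen, 13.7-fold higher (3.66 ± 0.19, adjusted p = 9.56e-08). Trim30a, a TRIM protein that dampens inflammatory signalling, was 54.1, 65.6 and 51.9 with DMSO and 589, 496 and 561 with tamoxifen, at least 8.34-fold higher (2.70 ± 0.13, adjusted p = 5.13e-08). Lgals3bp, a secreted glycoprotein, rose 6.49-fold. Xaf1, a promoter of apoptosis, was 324, 369 and 367 with DMSO and 1363, 1294 and 1273 with tamoxifen, 3.71-fold higher (1.80 ± 0.08).

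16 of the genes had 22 further probe sets, of which 21 also had a positive log2 difference. The exception, 1 of 2 further probe sets of Dhx58, measured 11.4 with DMSO and 9.84 with tamoxifen, both under the threshold. Probe sets of a gene disagreed in size. The further probe set of Xaf1 averaged 113 with vector, 110 with DMSO and 1286 with tamoxifen (log2 difference between tamoxifen and DMSO 3.22 against 1.80), and that of Rtp4 averaged 16.2 and 37.3 (0.53 against 3.66).

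**Figure D4:**
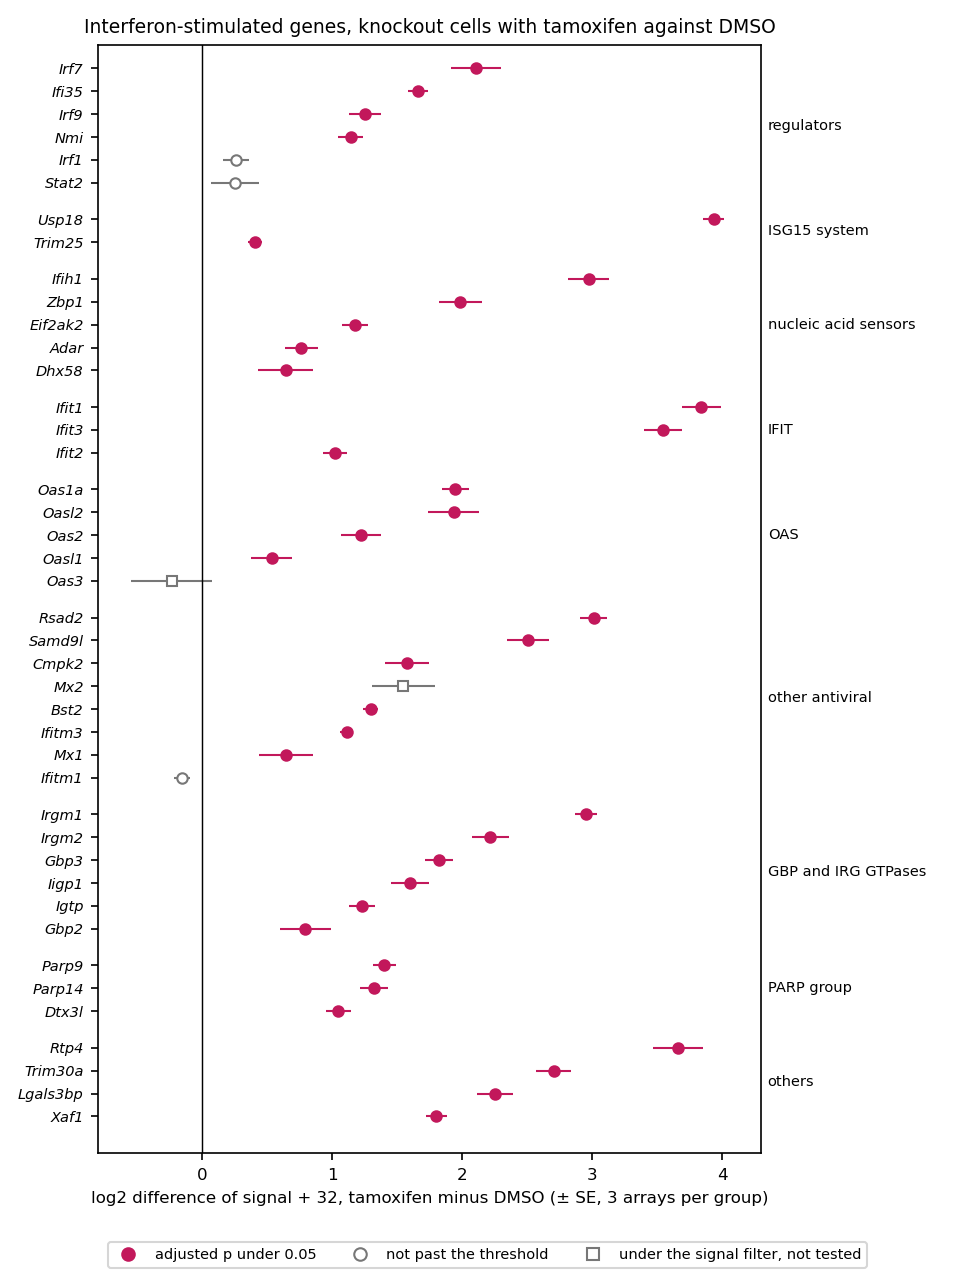
Log2 difference of signal + 32 between tamoxifen and DMSO for the 42 genes, grouped by role, with SE bars from the fit (3 arrays per group). The 37 filled points passed an adjusted p under 0.05, the open circles are Irf1, Stat2 and Ifitm1, and the open squares are Oas3 and Mx2, which were not tested.

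Other genes of the interferon pathway, were described by a list of 50, of which 44 were measured. Of 34 tested with tamoxifen against DMSO, 13 rose and 2 fell, and 19 did not pass, against 17.5% higher and 16.9% lower of all genes. By limma 0 of the ligand genes, which encode the interferons themselves, were called. With no filter 1 ligand gene was higher and 0 lower at an unadjusted p under 0.05. Of 7 measured ligand genes 1 could be tested, Ifnz, which was 120, 141 and 207 with DMSO and 57.7, 84.1 and 188 with tamoxifen (adjusted p = 0.224). Ifnb1, interferon beta, was 45.7, 73.3 and 52.5 with DMSO and 47.4, 71.2 and 31.97 with tamoxifen, its means under the threshold in both groups.

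4 of 6 receptor genes rose. The signal of Il10rb, shared by the receptors of interferon lambda and interleukin 10, averaged 120 with DMSO and 343 with tamoxifen (log2 difference 1.30). Ifnar2 averaged 371 and 590 (0.62, adjusted p = 0.000357), and Ifngr2 and Ifngr1, the receptor chains for interferon gamma, rose by 0.71 and 0.45. Ifnar1 averaged 503 and 577 (0.19, adjusted p = 0.128). Of the kinases and STAT genes Jak1 rose (0.47).

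Among sensors and adaptors, 4 of 8 tested rose. Ifi204, a DNA sensor, rose by 2.31, Ddx58, the RNA sensor RIG-I, by 1.56, Tlr3, the receptor of double-stranded RNA, by 1.06 and Myd88, an adaptor of Toll-like receptors, by 0.33 on the log2 scale. The kinase Ikbke (0.94) and the NF-κB subunit Rela (0.45) rose as well. Irf3, the factor that starts interferon transcription, averaged 598 with DMSO and 622 with tamoxifen (0.05, adjusted p = 0.715). Of the inhibitors, Nlrc5 (1.13), which also activates MHC class I genes, and Ptpn11 (0.43), a phosphatase, rose, while Socs3 (-0.34), which blocks JAK kinases, and Ptpn2 (-0.22), a phosphatase of JAK kinases, fell.

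The knockout cells with DMSO were also compared with the vector cells, in a fit of all 18 arrays. Genotype, transfection, DMSO and any difference in handling cannot be told apart here. Of 40 genes tested, 24 were higher in the knockout cells, 3 were lower and 13 did not pass. Of all 12678 genes tested, 33% were called higher and 22% lower. Several members, among them Gbp2, Gbp3, Irgm2, Rtp4 and Usp18, were under the threshold in every vector array and were tested through the groups where they are higher. With no filter, 23 of all 42 genes were higher and 3 lower, against 23.1% and 14.9% of 18193 genes. The median log2 difference was 0.52 over the members tested and 0.11 over all genes. Scaling each array to a common median moved the median of all genes by -0.36 and the share of higher calls among all calls from 59.96% to 24.6%. The members then stood at 14 higher and 4 lower, and Irf1, Trim25, Ifitm3 and Parp9, all called higher before, were at -0.11, -0.19, -0.13 and -0.03. With quantile normalization the share was 50.3% and the members stood at 16 higher and 4 lower. Trim25 also lost its call with the mean of its 3 probe sets (0.01, limma adjusted p = 0.935). 1 of its further probe sets averaged 275 with vector and 186 with DMSO.

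Of the GTPases, 5 of 6 were higher in the knockout cells with DMSO. Gbp2 was 18.9, 16.5 and 22.9 with vector and 557, 624 and 1114 in the knockout cells with DMSO, at least 11.6-fold higher (3.89 ± 0.22). Gbp3 was 30.7, 14.7 and 28.1 with vector and 228, 218 and 204 with DMSO, at least 3.30-fold higher (2.15 ± 0.24). Irgm1 was 64.2, 50.9 and 40.6 with vector and, as given above, 292 to 355 with DMSO, at least 4.81-fold higher (2.06 ± 0.18). For each of them all DMSO arrays lay above all vector arrays, as for 26 of the 42 measured genes and 29.2% of all 18193 genes. Igtp was 87.6, 56.3 and 127 with vector and 445, 341 and 374 with DMSO, 4.28-fold higher (1.81 ± 0.31). Irgm2 was 19.6, 19.2 and 22.5 with vector and 191, 127 and 130 with DMSO, at least 2.27-fold higher (1.77 ± 0.27). These GTPases belong to families of similar sequence, and their probe sets may overlap. Bst2 was 383, 395 and 450 with vector and 2360, 2115 and 2206 with DMSO, 5.44-fold higher (2.36 ± 0.11). Rtp4 was 2.65, 3.93 and 6.75 with vector, and at least 3.49-fold higher in the knockout cells with DMSO (2.78 ± 0.22). Usp18 was 23.6, 42.3 and 15.3 with vector, and at least 2.53-fold higher with DMSO (1.77 ± 0.24). The lower genes were Xaf1 (-1.76 ± 0.19), Ifitm1 (-0.84 ± 0.07) and Irf9 (-0.57 ± 0.13). For Xaf1 this holds for 1 of 2 probe sets, since the other averaged 113 with vector and 110 with DMSO. Each of these genes kept its direction and its call under both other scalings.

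Of the pathway genes, 19 of 36 tested were higher and 0 lower by limma in the knockout cells with DMSO. Of all 12678 genes tested, 33% were called higher and 22% lower. At an unadjusted p under 0.05 the numbers of pathway genes were 20 and 0. All 6 receptor genes were among the 19 called higher, with a smallest log2 difference of 0.31. The pathway genes were not counted again under array median scaling, which moved the median of all genes by -0.36. Irf8, a factor of blood cells, was higher by 1.80 and Aim2, a DNA sensor, by 2.77. Of the 8 fibroblast markers, 7 were higher, with a median log2 difference of 2.18, as were 4 of 6 blood and macrophage markers tested. By limma with no filter, 7 and 4 of the 8 of each kind were higher, against 23.1% of 18193 genes. Of the 8 embryonic stem cell markers, 5 were lower and 1 was higher, with a median of -0.34. The part of these markers in the result was not tested.

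In the transfected cells few of the genes differed. 24 were tested, and the remaining 18, Usp18, Ifit1 and Irf7 among them, did not reach the threshold in 3 of the 12 arrays. In the cells labelled Foxd3, 1 of 24 was higher and 3 were lower than with vector, against 1.71% and 1.17% of all 11609 genes tested. The higher gene was Gbp2, a guanylate-binding protein, at 118, 72.2 and 77.0 against 18.9, 16.5 and 22.9. No array overlapped, and the rise was at least 1.35-fold (1.22 ± 0.23, adjusted p = 0.00832). Gbp2 was under the threshold in every vector and CA-NFATc3 array and was tested through the groups where it is higher. By limma with no filter, 1 of all 42 genes was higher and 0 lower, against 1% and 0.522% of 18193 genes. Without overlap, 5 of the 42 measured genes were higher and 5 lower, against 7.9% and 8.71% of all 18193 genes.

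The 3 lower genes had high signals and small differences. Ifitm3 was 3603, 3639 and 3703 with vector and 3242, 2711 and 2438 with the Foxd3 label (-0.39 ± 0.10, adjusted p = 0.0477). Ifitm1 was 9322, 11168 and 10193 with vector and 8917, 8050 and 8402 with the Foxd3 label (-0.27 ± 0.07, adjusted p = 0.0452). Trim25 was 5892, 6305 and 6472 with vector and 5505, 4940 and 5213 with the Foxd3 label (-0.25 ± 0.06, adjusted p = 0.0475). The groups did not overlap for any of them, which holds for 8.71% of all genes in this direction. All 3 calls were lost with no filter, with array median scaling and with the mean of the probe sets. Each was also lost in 8 of the 12 fits that left out 1 transfected array, among them those without vector replicates 2 or 3, or replicates 2 or 3 of the Foxd3 label, with adjusted p up to 0.203 for Ifitm1, 0.238 for Ifitm3 and 0.19 for Trim25.

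Xaf1 depended on the pairing of the replicates. It was 972, 1390 and 1505 with vector and 660, 1008 and 979 with the Foxd3 label, lower in each of the 3 numbered pairs (-0.53, adjusted p = 0.267). Blocked on replicate number, it had an adjusted p of 0.000914.

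With CA-NFATc3, 1 of the 24 genes was higher and 0 were lower than with vector, against 4.62% and 1.24% of all genes (by limma; 4 and 2 at an unadjusted p under 0.05). Gbp3, another guanylate-binding protein, was 30.7, 14.7 and 28.1 with vector and 111, 86.8 and 222 with CA-NFATc3, at least 2.12-fold higher (1.54 ± 0.29, adjusted p = 0.0036). It was under the threshold in every vector array and was tested through groups where it is higher. By limma with no filter, 2 of all 42 genes were higher and 0 lower, against 2.7% and 0.649% of 18193 genes. Gbp2 was 37.4, 21.3 and 52.9 with CA-NFATc3 (0.40 ± 0.23, adjusted p = 0.45), and with the mean of its probe sets it was called (0.60, adjusted p = 0.0245). Rtp4 was under the threshold in every array of these groups. With no filter its difference was 1.06 (adjusted p = 0.00972), at 2.65, 3.93 and 6.75 with vector and 62.7, 30.3 and 41.4 with CA-NFATc3. Of 4 fibroblast markers tested 1 was called higher, the collagen gene Col3a1 (2.32). With no filter 5 of all 8 were above 0, with a median of 0.05 and a lowest value of -0.42.

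With both plasmids, 2 of the 24 genes were higher and 2 lower than with vector, against 3.48% and 1.34% of all genes. Gbp2 was 63.8, 110 and 88.8, at least 1.33-fold higher (1.20 ± 0.23, adjusted p = 0.00638). As above, it was tested through the groups where it is higher. Ifit2 was 148, 117 and 137 with vector and 185, 253 and 264 with both, 1.75-fold higher (0.67 ± 0.17, adjusted p = 0.0366). Ifitm1 (-0.28 ± 0.07, adjusted p = 0.0245) and Trim25 (-0.24 ± 0.06, adjusted p = 0.0428) were lower. With no filter Ifit2 (adjusted p = 0.0669) and Trim25 (0.0619) lost their calls, as they did with array median scaling (0.0721 and 0.0767), and Trim25 also with the mean of its probe sets (0.0959). Rtp4, which was not tested with the filter, was called higher with no filter (1.29, adjusted p = 0.00312). By limma with no filter, 2 of all 42 genes were higher, Gbp2 and Rtp4, and 1 lower, Ifitm1. Of 18193 genes 1.97% were higher and 0.715% lower. When 1 of the 12 arrays was left out, Ifit2 lost its call in 5 fits (any vector array, or replicates 2 or 3 of both, adjusted p up to 0.148), Ifitm1 in 4 (vector replicates 2 or 3, both replicates 1 or 3, up to 0.115) and Trim25 in 7 (up to 0.18). With the replicate block, Xaf1 (-0.45, adjusted p = 0.0022, against 0.302 without the block) and Ifitm3 (-0.36, adjusted p = 0.0234, against 0.052) were lower as well. Of 4 fibroblast markers tested 2 were higher with both, Col1a2 (2.63) and Col3a1 (1.63), and the summed signal of all 8 was 834 to 920 against 329 to 394 with vector. The stem cell marker Esrrb was lower (-0.26), and the part of these markers was not tested. The comparisons with vector share its 3 arrays, so they are not independent of each other.

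Against CA-NFATc3 alone, both plasmids gave 0 of 24 genes higher and 1 lower, Trim25 (-0.27 ± 0.06, adjusted p = 0.018, and 0.0726 to 0.0882 without CA-NFATc3 replicates 1 or 3 or replicate 3 of both), against 2.44% and 3.69% of all genes. With the replicate block 3 genes were called: Trim25, Xaf1 (-0.53, adjusted p = 0.000549, against 0.206) and Gbp2 (0.80, adjusted p = 0.0485, against 0.0576). Against the cells labelled Foxd3 alone, 0 of 24 genes were called by limma, with 1 higher and 0 lower at an unadjusted p under 0.05, where 0.327% of all genes were called. The interaction of the plasmids gave 0 of 24 by limma, with 0 higher and 2 lower at an unadjusted p under 0.05, where 0.81% of all genes were called. Gbp3 was 43.0, 109 and 42.5 with both plasmids, and its interaction was -1.45 ± 0.41 (adjusted p = 0.16). Of 28 pathway genes tested in the transfected cells, Ifnz was higher with CA-NFATc3 (0.96, adjusted p = 0.0108) and Jak2 with both (0.63, adjusted p = 0.0444) than with vector.

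**Figure D5:**
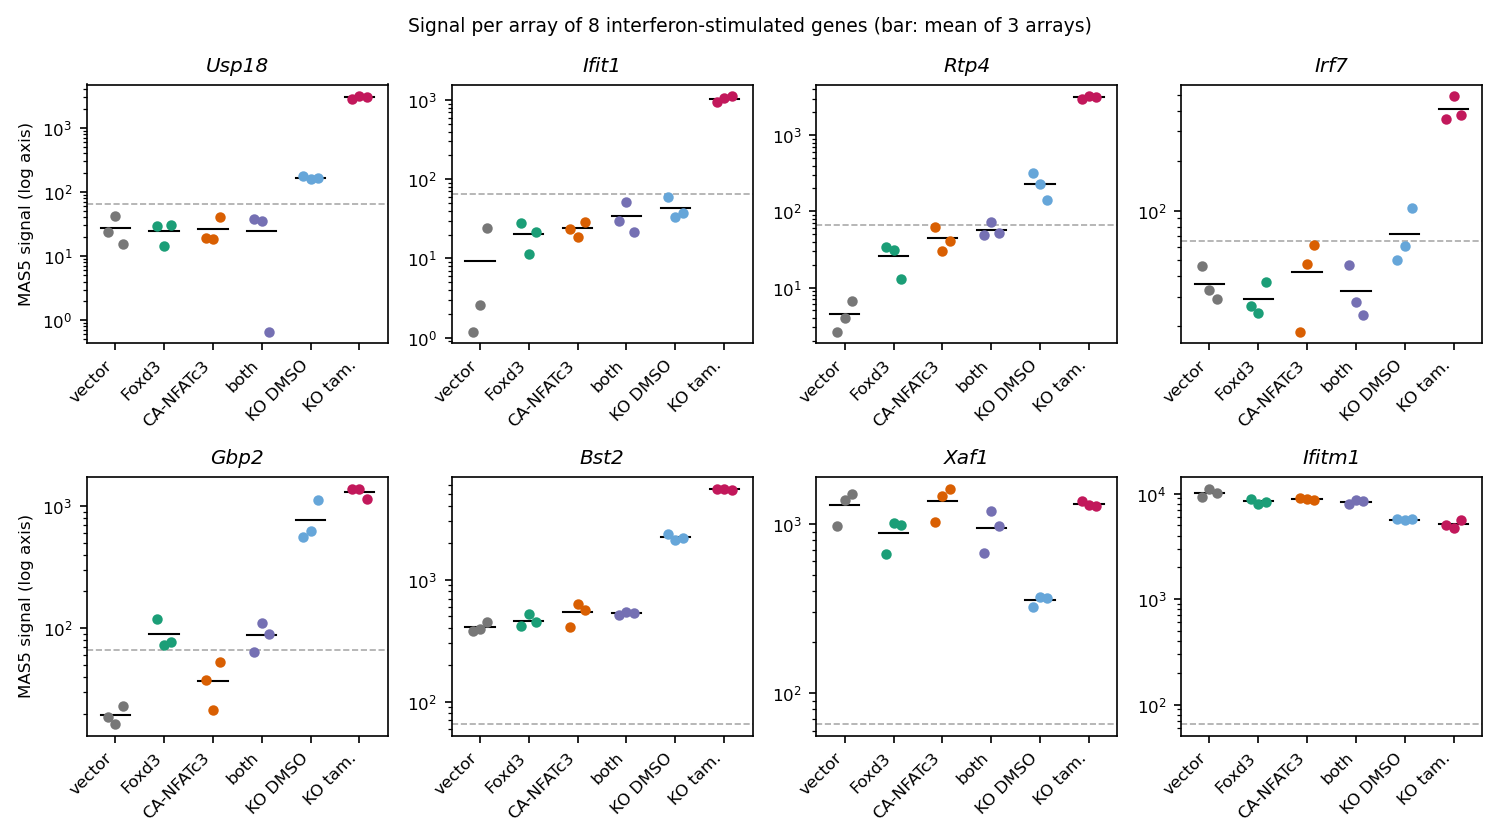
MAS5 signal of 8 of the genes in each array (points, log axis) with the mean of 3 arrays (bar) per group; the dashed line is the threshold of 65.8. Usp18, Ifit1, Rtp4 and Irf7 are highest in the knockout cells with tamoxifen; Gbp2 and Bst2 are higher in the knockout cells with DMSO than with vector; Xaf1 is lowest with DMSO, and Ifitm1 is highest with vector.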

How the data were processed

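The authors deposited a linear intensity for each probe set, which the submitters' processing notes call MAS5, with no version; scanner files and detection calls were not used here. All 18 columns were matched to labelled samples. The number of arrays limits the precision. Of 45101 probe sets 34945 had 1 gene symbol in the platform annotation, covering 18193 genes.

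An offset of 32 was added to each signal before log2 was taken. Linear models of the group means used limma 3.58.1 (R 4.3.3; eBayes with trend), run separately for the transfected cells (12 arrays, 11609 genes) and the knockout cells (6 arrays, 12093 genes), without covariates; tests were two-sided with Benjamini-Hochberg adjustment over all genes tested. A log2 difference is on the log2(signal + 32) scale and understates changes of dim genes. Folds are ratios of mean signals, given as "at least" where the dimmer group's mean was under 65.8, with its arrays under 65.8 set to that value. The fits were tested on simulated data. Figures were drawn with matplotlib 3.10.9 in Python 3.11.15.

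The members, gene lists and tests were chosen with earlier results of these data known. Values per array are given for up to 8 called genes with the largest difference in each comparison. With tamoxifen against DMSO, a fixed set was added (Usp18, Ifit1, Irf1, Irf7, Irf9, Stat2, Ifitm1, Ifitm3, Adar and, of the pathway, Ifnb1). Those of Gbp2, Mx1, Mx2, Oas3, Xaf1, Ifnz, Lyz2 and Ptprc in the tamoxifen comparison, and of Xaf1, Rtp4, Gbp2 and Gbp3 beyond their calls in the transfected cells, were chosen after their values were seen. Samples with the same replicate number deviated together in the transfected cells (correlations 0.104 to 0.315 over 18 pairs of samples, against -0.282 to 0.0133 for other numbers), so the numbers pair them there. In the knockout cells they did not (-0.0425 to 0.0152). The main fits of the transfected cells, and the counts from them, ignored this pairing. With the replicate block every such call was kept, and those of Xaf1, Ifitm3 and Gbp2 given beside the results were gained. The labels call the replicates biological without naming cultures, so p-values measure the spread between these samples. Oas1a and Oas1g, Igtp and Irgm2, and other family members of similar sequence may share probes and are uncertain for that reason. The alternatives tried were other offsets, no filter, quantile normalization, array median scaling, the mean of all probe sets, the replicate block, other sets of arrays in the fit, and leaving out each array. Some items are not reported here.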

Additional observations from a re-analysis of the deposited data

How the results depend on the processing

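Counts of interferon-stimulated genes called were compared over the alternatives. Differences of those given with values per array by the stated rule kept their sign in the comparisons for which the rule chose them. For the knockout cells with DMSO against vector, 4 genes called higher changed sign under array median scaling, as given there. Irf1 and Ifitm3, which the rule chose for the tamoxifen comparison, were among them. With tamoxifen, 35 to 37 of the 37 calls were kept under the alternatives that used all arrays of the comparison, and the count was 29 to 36 when 1 array was left out. Without 1 tamoxifen array, 31 of the 37 called genes still reached the filter, and without 1 DMSO array all 37 did. The calls lost then among genes still tested were Dhx58, Oasl1 and Mx1. Without 1 tamoxifen array (replicate 3) Ifitm1 was called, lower (adjusted p = 0.0164).

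For Foxd3 against vector the 4 calls became 1 with no filter, 1 with array median scaling, 1 with the mean of probe sets and 2 with only those groups in the fit. For CA-NFATc3 against vector 1 became 2 with no filter, 2 with the mean of probe sets and 3 with all 18 arrays. For both against vector 4 became 2 with array median scaling, 7 with all 18 arrays and 2 with only those groups. For both against CA-NFATc3 1 became 0 with array median scaling, 0 with the mean of probe sets, 3 with the replicate block and 3 with all 18 arrays. For the interaction 0 became 1 with all 18 arrays. The cause was not tested.

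Leaving out 1 array gave 1 to 4 calls for Foxd3, 1 to 2 for CA-NFATc3, 1 to 5 for both against vector, 0 to 2 for both against CA-NFATc3, 0 to 0 for both against Foxd3 and for the interaction, and 23 to 26 for the knockout cells with DMSO against vector. Gbp2 and Gbp3 kept their calls against vector in each of these fits; Ifitm1, Ifitm3, Trim25 and Ifit2 lost theirs in several. In the knockout cells, where the numbers do not pair the samples, the replicate block gave Mx1 an adjusted p of 0.0536; apart from this and the calls given beside the results, it changed no call. Array median scaling moved the share of higher calls among all genes called from 59.3% to 73.9% for Foxd3, from 72.3% to 56.7% for both against vector and from 39.8% to 28.0% for both against CA-NFATc3. Genes with signals under 65.8 have no reliable order.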

Other observations

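Several of the genes lie next to each other in the RefSeq order of genes and moved to different extents with tamoxifen. Rsad2 and Cmpk2, neighbours on chromosome 12, had log2 differences of 3.01 and 1.58. Ifit3 and Ifit2, on chromosome 19, had 3.55 and 1.02. Oasl2 and Oasl1, on chromosome 5, had 1.94 and 0.53. Parp14, Dtx3l and Parp9, on chromosome 16, had 1.32, 1.05 and 1.40, the closest values among these groups. Ifitm3 and Ifitm1, on chromosome 7, had 1.11 and -0.15. The differences between neighbours were not tested.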
